A study of Mus musculus with 8 samples.

Results

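The phagocyte NADPH oxidase was followed through 6 genes, *Cybb*, *Cyba*, *Ncf1*, *Ncf4*, *Rac2* and *Hvcn1*, chosen by gene symbol out of the 55414 genes listed in the count files. They encode subunits of the oxidase, the small GTPase that switches it on and the proton channel that works beside it. RNA was measured in neutrophils of the spleen from 4 WT and 4 *Cxcr2-/-* mice, all 10 weeks old, on the FVB background and kept in SOPF (specific and opportunistic pathogen free) housing, with 1 library per replicate. The *Cxcr2-/-* mice lack the chemokine receptor in all cells from the germline on. By the study's methods the cells were enriched on CD11b and then sorted as CD45+ CD11b+ Ly6G+ F4/80-. The labels number the replicates without naming an animal for each, and the methods describe the comparison as one between animals.

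The oxidase is the enzyme of the respiratory burst. In resting neutrophils its membrane part, the cytochrome b558 made of gp91phox (*Cybb*) and p22phox (*Cyba*), is held apart from the cytosolic subunits such as p47phox (*Ncf1*) and p40phox (*Ncf4*) and from Rac2. When the cell meets a microbe these join at the membrane, electrons pass from NADPH to oxygen and superoxide is released, while the Hv1 channel (*Hvcn1*) lets protons follow the charge. Loss of gp91phox, p22phox or p47phox causes chronic granulomatous disease.

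The libraries held from 34220182 to 46233555 counts on genes in WT and from 37549648 to 43789253 in *Cxcr2-/-*, and the members had at least 11321 counts in each library except *Hvcn1*, which had at least 1031. Levels are given in CPM, the counts of a gene relative to the TMM-scaled library size. *Cxcr2* itself was at 1719 to 2252 CPM in the WT libraries and 12.9 to 20.7 CPM in those labelled *Cxcr2-/-*, as the labels say. The groups differed in how read pairs were assigned. The share that the counting assigned to no feature, here the no-feature share, was 31.4, 40.0, 41.5 and 40.0% in WT replicates 1 to 4. It was 26.7, 30.1, 29.9 and 31.9% in *Cxcr2-/-* replicates 1 to 4. The counts do not tell whether such pairs lay in introns or outside genes. The share not aligned to a unique place was 8.23 to 11.2% in WT and 10.4 to 13.3% in *Cxcr2-/-*. The neutrophil label was met by abundant neutrophil markers in every library, with 31124 to 44885 CPM in WT and 69146 to 84567 CPM in *Cxcr2-/-* summed over 8 genes. By the edgeR test used below, 6 of these genes were higher in *Cxcr2-/-* (23.7% of all genes tested) and 1 lower (21%). The lower one was *Csf3r* (6960 to 3334 CPM on average, log2 fold change -1.06, edgeR adjusted p = 1.11e-05). *Itgam* was not called (0.18, edgeR adjusted p = 0.173). *S100a8* and *S100a9* made up most of the sum, with means of 12054 and 13530 CPM in WT and 28418.5 and 33865 CPM in *Cxcr2-/-*.

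Expression of all 6 members was up-regulated in spleen *Cxcr2-/-* neutrophils, by 1.56- to 2.17-fold, and the 4 *Cxcr2-/-* libraries stood above the 4 WT libraries for each of them. In edgeR (quasi-likelihood test, Benjamini-Hochberg adjusted p under 0.05) 6 of 6 members were higher, beside 23.7% of the 16778 genes tested that were higher and 44.7% that were called in either direction. With a change of at least 1.5-fold as well, 6 of 6 were higher beside 15.7% of the genes tested. *Ncf1* and *Rac2* were close to that fold, and 4 of 6 members passed it with upper-quartile scaling, with total counts or without *Cxcr2-/-* replicate 1. Without WT replicate 2 (*Rac2* lost) or WT replicate 3 (*Ncf1* lost) 5 of 6 passed it. Full separation of the groups in this direction was seen for 22.5% of the genes tested. The median log2 fold change was 0.73 for the members and 0.01 for all genes tested. In RNA from a whole sorted population, more cells of a type and more RNA per cell cannot be told apart. RNA levels do not measure the activity of the oxidase. By flow cytometry the study reported fewer neutrophils positive for reactive oxygen species and for mitochondrial superoxide in *Cxcr2-/-* spleen than in WT spleen. The relation of that result to the RNA levels was not tested.

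**Figure D1:**
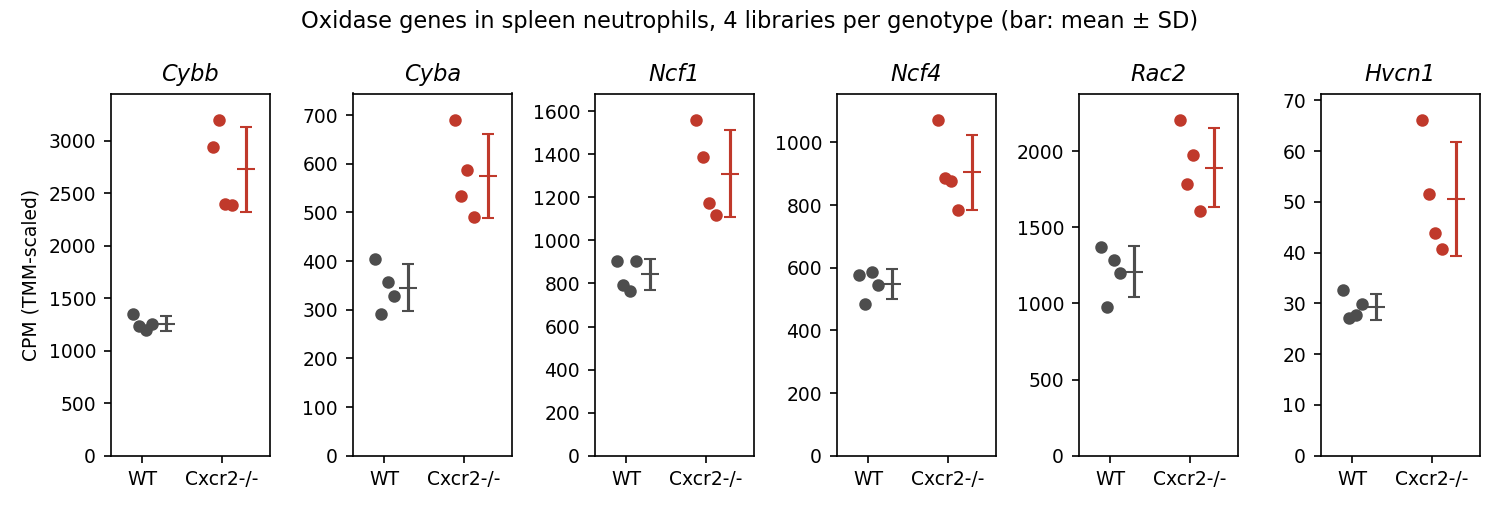
Level of the 6 members in each library, in CPM on linear axes that start at 0, with 1 point per library and, beside the points, the mean ± SD of the 4 libraries of a group. For every member the lowest *Cxcr2-/-* point lies above the highest WT point, and the gap is widest for *Cybb*.

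*Cybb* (ENSMUSG00000015340, GRCm38 chrX:9435252-9487771, minus strand) encodes gp91phox, the subunit that carries the electrons. It was at 1353, 1231, 1193 and 1254 CPM in WT replicates 1 to 4 and at 2937, 3193, 2393 and 2386 CPM in *Cxcr2-/-* replicates 1 to 4. The *Cxcr2-/-* libraries fell into a higher pair and a lower pair, and both pairs were far above WT. The mean went from 1258 ± 68.5 (SD, n = 4) to 2727 ± 403.6 CPM, a log2 fold change of 1.12 (SE 0.12, 95% interval 0.85 to 1.39) with an adjusted p of 1.73e-05 in edgeR. This was the largest change among the 6 members.

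*Cyba* (ENSMUSG00000006519, chr8:122424776-122432930, minus strand) encodes p22phox, without which gp91phox is not stable. It was at 405.0, 290.5, 356.0 and 327.5 CPM in WT and 689, 533, 587 and 491 CPM in *Cxcr2-/-*. The groups did not overlap, with WT replicate 1 and *Cxcr2-/-* replicate 4 the closest to each other. The log2 fold change was 0.74 (SE 0.13, 95% interval 0.45 to 1.02, edgeR adjusted p = 6.23e-04).

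The RNA levels for the cytosolic organizer p47phox and the phosphoinositide-binding p40phox rose by similar amounts. *Ncf1* (ENSMUSG00000015950, chr5:134220053-134229625, minus strand) was at 903, 795, 767 and 903 CPM in WT and 1558, 1389, 1175 and 1118 CPM in *Cxcr2-/-*. *Ncf4* (ENSMUSG00000071715, chr15:78244801-78262580, plus strand) was at 578, 483, 586 and 544 CPM in WT and 1071, 888, 878 and 784 CPM in *Cxcr2-/-*. For both genes *Cxcr2-/-* replicate 1 was the highest and *Cxcr2-/-* replicate 4 the lowest of its group, and neither reached down to WT. The log2 fold change was 0.64 for *Ncf1* (SE 0.13, 95% interval 0.37 to 0.91, edgeR adjusted p = 0.00125) and 0.72 for *Ncf4* (SE 0.12, 95% interval 0.47 to 0.98, edgeR adjusted p = 3.01e-04). Exons of *Gtf2ird2*, on the opposite strand, cover 11.1% of the exon length of *Ncf1*, and the strand setting of the counting is not stated. *Gtf2ird2* had 66.5 ± 7.37 CPM in WT against 72.7 ± 17.3 CPM in *Cxcr2-/-* (SD, n = 4 each). The effect of this overlap on the *Ncf1* counts was not tested.

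*Rac2* (ENSMUSG00000033220, chr15:78559167-78572783, minus strand) encodes the GTPase of blood cells that switches the oxidase on when loaded with GTP. It was at 1370, 979, 1287 and 1201 CPM in WT and 2202, 1783, 1977 and 1604 CPM in *Cxcr2-/-*. All *Cxcr2-/-* libraries were above all WT libraries, with a log2 fold change of 0.65 (SE 0.14, 95% interval 0.35 to 0.94, edgeR adjusted p = 0.00200). The related *Rac1*, found in most cell types, had 232 ± 31.7 CPM in WT against 260 ± 13.8 CPM in *Cxcr2-/-* (SD, n = 4 each). The groups overlapped for *Rac1* and it did not pass the test, with a log2 difference of 0.16 (95% interval -0.07 to 0.39, edgeR adjusted p = 0.245). Exons of *Daglb*, on the opposite strand, cover 51.4% of the exon length of *Rac1*. *Daglb* had 40.3 ± 4.21 CPM in WT against 39.7 ± 2.76 CPM in *Cxcr2-/-* (SD, n = 4 each).

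*Hvcn1* (ENSMUSG00000064267, chr5:122206804-122242297, plus strand) encodes the voltage-gated proton channel and was by far the least abundant member. It was at 32.7, 27.0, 27.8 and 29.8 CPM in WT and 66.1, 51.5, 43.9 and 40.8 CPM in *Cxcr2-/-*. The groups did not overlap and the log2 fold change was 0.79 (SE 0.14, 95% interval 0.48 to 1.09, edgeR adjusted p = 6.03e-04), while the *Cxcr2-/-* libraries varied more for this gene than for the others (coefficient of variation 22.3%). Exons of *Tctn1* lie on the other strand over 44.2% of the exon length of *Hvcn1*. *Tctn1* had 36.9 ± 8.23 CPM in WT against 28.3 ± 4.95 CPM in *Cxcr2-/-* (SD, n = 4 each). The effect of this overlap on the *Hvcn1* counts was not tested.

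The members varied together inside the groups as well. *Cxcr2-/-* replicate 1 was the highest of its group for 5 of the 6 members and *Cxcr2-/-* replicate 4 the lowest for all 6, and in WT replicate 1 was the highest for 5 and replicate 2 the lowest for 4. Within *Cxcr2-/-* the no-feature share of read pairs was lowest in replicate 1 (26.7%) and highest in replicate 4 (31.9%). Within WT it was lowest in replicate 1 (31.4%), with 40.0% in replicate 2 and 41.5% in replicate 3. The part of this share in the order of the libraries was not tested. Over the 15 pairs of members, the correlation of their log2 deviations from the group means across the 8 libraries ran from 0.30 to 0.97 with a median of 0.76, a description of values that share their libraries and their scaling. The summed level of the 6 members was 8523, 7837, 7054 and 6423 CPM in *Cxcr2-/-* replicates 1 to 4, and the 7 early neutrophil markers (*Mpo*, *Elane*, *Prtn3*, *Ctsg*, *Ltf*, *Camp*, *Ngp*) summed to 57880, 48372, 47497 and 39743 CPM in the same order. In WT the members summed to 3806 to 4643 CPM and these markers to 17345 to 21197 CPM. All 7 early markers were higher in *Cxcr2-/-* by the same edgeR test, beside 23.7% of all genes tested. None was at 0 in all libraries, and their part in the members' difference was not tested.

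Within the *Cxcr2-/-* group that sum was carried by the abundant *Ltf*, *Camp* and *Ngp*, while the other 4 genes of the list (*Mpo*, *Elane*, *Prtn3*, *Ctsg*) stood the opposite way, with higher levels in replicates 3 and 4 than in replicates 1 and 2. *Ltf* (lactoferrin) was at 26104, 21782, 18959 and 17392 CPM in *Cxcr2-/-* replicates 1 to 4, the order of the members' sum. *Mpo* (myeloperoxidase) was at 19.1, 20.2, 81.2 and 145.8 CPM and *Elane* (neutrophil elastase) at 12.03, 14.5, 55.5 and 93.2 CPM in the same libraries, highest where the members were lowest.

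Markers of other cell types that the sort could hold were summed in the same way. The counts of genes called stand beside 23.7% higher and 21% lower among all genes tested. B cell markers, cells that also express *Hvcn1* and *Cybb*, summed to 119 to 452 CPM in WT and 61.3 to 176 CPM in *Cxcr2-/-* (4 of 6 lower, none higher). Monocyte and macrophage markers, from cells that also use this oxidase, summed to 454 to 552 CPM in WT and 217 to 351 CPM in *Cxcr2-/-* (2 of 8 lower, 2 higher). Eosinophil markers summed to 48.8 to 68.9 and 37.6 to 64.1 CPM (2 of 4 lower, 2 higher), and T and NK cell markers to 83.9 to 113 and 89.8 to 138 CPM, with none of 4 tested passing. Dendritic cell markers and erythroid and platelet markers summed to at most 24.4 CPM in any library, with 1 of 3 tested lower in each list and none higher. No marker of these lists was at 0 in all libraries. The first 4 sums were each carried mostly by 1 gene, given here as its mean beside the mean sum. In WT these were *Cd74* (223 of 261 CPM), *Csf1r* (442 of 495), *Siglecf* (48.1 of 60.6) and *Cd3d* (99.1 of 101). In *Cxcr2-/-* they were at 109 of 129, 232 of 284, 32.5 of 48.4 and 108 of 111 CPM in that order. Of the monocyte and macrophage markers, *Csf1r* and *Adgre1* were called lower. *Ccr2* (7.29 to 24.1 CPM on average, WT to *Cxcr2-/-*) and *Mertk* (1.65 to 3.54 CPM) were called higher. Of the eosinophil markers, *Siglecf* and *Ccr3* were called lower. *Epx* (0.332 to 2.25 CPM) and *Prg2* (1.21 to 8.74 CPM) were called higher. *Cd3e* and *Trbc2* reached at most 0.563 CPM in any library, so the T and NK cell sum was close to the level of *Cd3d* alone. *Cd74* was itself not called (log2 fold change -1.03, edgeR adjusted p = 0.0556). The highest B cell sum was that of WT replicate 2, where *Cd74* was at 430 CPM.

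The calls of 5 members were not kept when the no-feature share of read pairs entered the edgeR fit as a covariate. This alternative was added after the data were seen. *Cybb* kept a log2 fold change of 0.93 (adjusted p = 0.00959), and 1 of 6 members was then called. The other five had log2 values between 0.35 and 0.53 with adjusted p from 0.0837 to 0.277. Since 3 of the 4 WT libraries had shares above those of all *Cxcr2-/-* libraries, this share and the genotype cannot be told apart. WT replicate 1 had a share (31.4%) close to that of *Cxcr2-/-* replicate 4 (31.9%). Between these 2 libraries the level was 1353 against 2386 CPM for *Cybb*, 405.0 against 491 CPM for *Cyba*, 903 against 1118 CPM for *Ncf1*, 578 against 784 CPM for *Ncf4*, 1370 against 1604 CPM for *Rac2* and 32.7 against 40.8 CPM for *Hvcn1*. These were the highest WT library for 5 members and the lowest *Cxcr2-/-* library for all 6, so the pair is among the closest the groups offer. The covariate also ended the calls of *Cybc1* (log2 fold change 0.19, edgeR adjusted p = 0.470), *Pgd* (0.07, 0.846), *Nnt* (-0.26, 0.580), *Me1* (0.87, 0.428), *Vav2* (-0.99, 0.295), *Mthfd1* (-0.80, 0.179), *Elf1* (-0.30, 0.160), *Pik3c3* (0.46, 0.0718), *Nrros* (-0.43, 0.0656), *Cebpe* (0.76, 0.0602) and *Rnf145* (-0.43, 0.0548), all described further on.

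**Figure D2:**
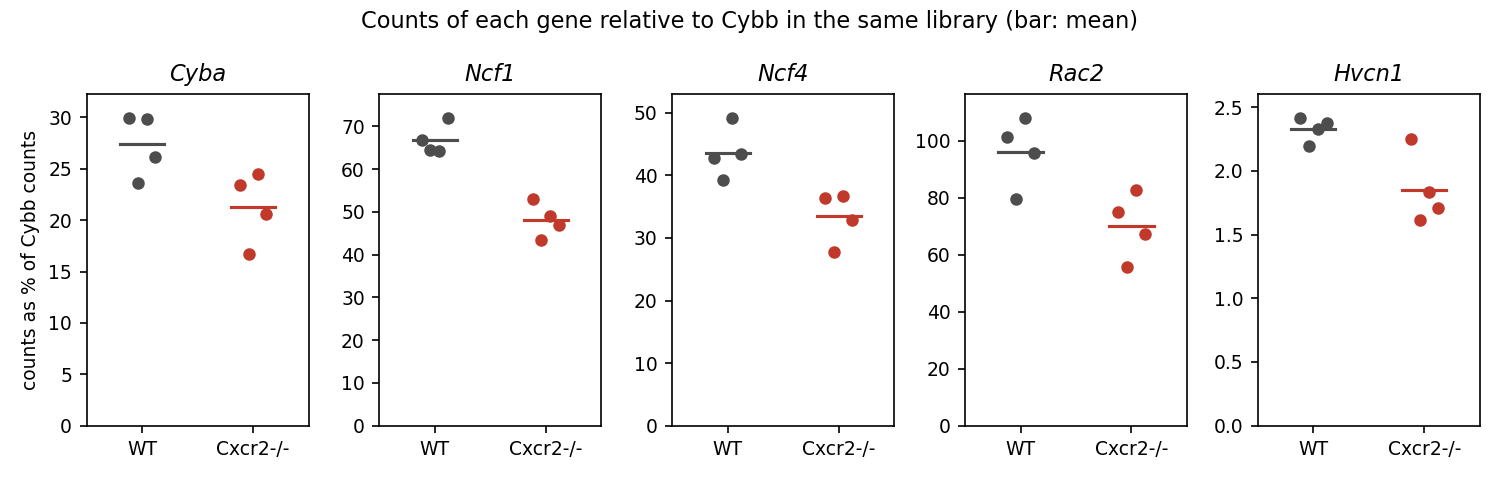
Counts of the other 5 members as percent of the *Cybb* counts of the same library, on linear axes that start at 0, with 1 point per library and a bar at the mean of 4 libraries. All 5 ratios share *Cybb* as denominator and are lower on average in *Cxcr2-/-*. The groups are apart for *Ncf1*, with 64.3 to 71.9% in WT and 43.5 to 53.0% in *Cxcr2-/-*, and for *Ncf4*.

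The balance of the subunits was compared as the ratio of each gene's counts to the *Cybb* counts of the same library, a measure that no scaling of libraries can change and that is not corrected for length. *Ncf1* counts were 66.7, 64.5, 64.3 and 71.9% of *Cybb* counts in WT and 53.0, 43.5, 49.1 and 46.9% in *Cxcr2-/-*, and *Ncf4* counts were 39.2 to 49.2% and 27.8 to 36.7%. The groups did not overlap for these 2 ratios. The ratios of *Cyba* (23.6 to 29.9% and 16.7 to 24.5%), *Rac2* (79.5 to 107.9% and 55.8 to 82.6%) and *Hvcn1* (2.20 to 2.41% and 1.61 to 2.25%) overlapped between the groups. On the log2 scale the difference, *Cxcr2-/-* minus WT, was -0.37 for *Cyba*, -0.48 for *Ncf1*, -0.39 for *Ncf4*, -0.46 for *Rac2* and -0.34 for *Hvcn1*. All 5 ratios share *Cybb*, the member with the largest change, so their common direction restates that change and is not 5 separate results. By an exact permutation test (two-sided, 4 against 4) p was 0.0286, the smallest this design allows, for *Ncf1* and *Ncf4* and 0.0571 for the other three. Adjusted over the 5 ratios every p was 0.0571, so none passed 0.05.

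Per kilobase of exon (RPKM), the cytosolic and membrane subunits were at comparable levels, and the place of *Cybb* in the order differed between the groups. In WT the median was 401 RPKM for *Rac2*, 329 for *Cyba*, 278 for *Ncf4*, 232 for *Ncf1*, 214 for *Cybb* and 8.09 for *Hvcn1*. Every neighbouring pair in that order overlapped in range except *Cybb* and *Hvcn1*. In *Cxcr2-/-* the order was *Rac2* (606 RPKM), *Cyba* (539), *Cybb* (459), *Ncf4* (437), *Ncf1* (350.0) and *Hvcn1* (13.4). Neighbours overlapped from *Rac2* down to *Ncf1*, and *Hvcn1* lay below without overlap.

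**Figure D3:**
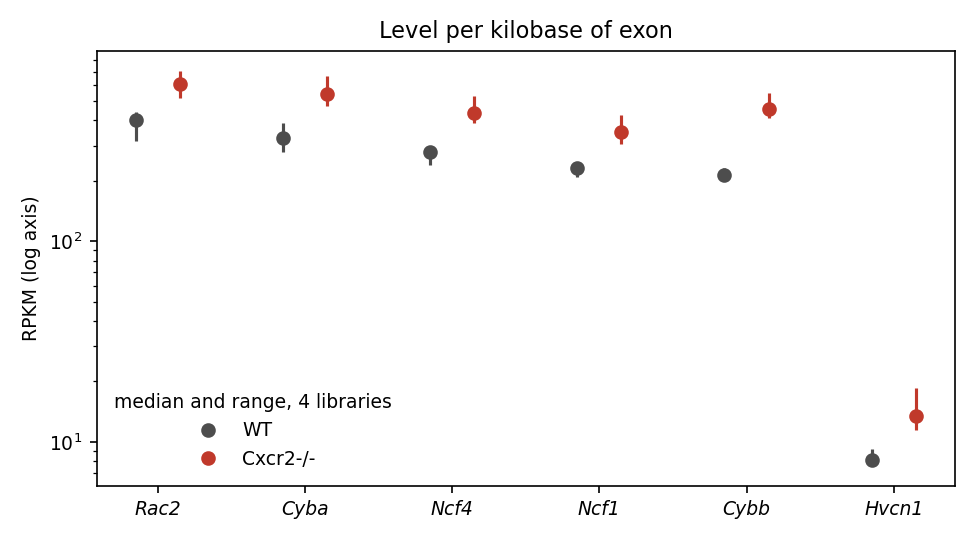
Level of the 6 members per kilobase of exon (RPKM, log axis), ordered by the WT median, with the median of 4 libraries as a point and their full range as a line. *Cybb* is last of the 5 abundant genes in WT and above *Ncf4* and *Ncf1* in *Cxcr2-/-*, and *Hvcn1* is far below the rest in both groups.

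*Cybb* was the catalytic oxidase gene that could be tested. Of 9 genes of the other NADPH oxidases and their helpers (*Nox1*, *Nox3*, *Nox4*, *Duox1*, *Duox2*, *Noxa1*, *Noxo1*, *Duoxa1*, *Duoxa2*) none passed the filter on low counts. No library held more than 14 counts of any of them. *Nox3*, *Nox4*, *Duoxa1* and *Duoxa2* were at 0 in all 8 libraries, so the expression of these 4 was not detectable at this depth. *Nox1* (2 to 10 counts) and *Noxo1* (3 to 14 counts) had a few counts in every library.

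Among 24 partner genes of the oxidase, 3 were higher, 4 lower and 17 did not pass, beside 23.7% higher and 21% lower among all genes tested, with a median log2 fold change of 0.05. Of the genes that handle Rac, *Arhgdib*, which holds Rac in the cytosol, rose from 612 ± 85.9 to 1143 ± 111 CPM (log2 fold change 0.90, SE 0.13, edgeR adjusted p = 9.38e-05). *Prex1*, an exchange factor that loads Rac2 with GTP, fell by 0.61 on the log2 scale (923 ± 145.1 to 604 ± 100.3 CPM, edgeR adjusted p = 0.00423), with an overlap between *Cxcr2-/-* replicate 1 (742 CPM) and WT replicate 3 (716 CPM). *Vav2*, another exchange factor, was low in all libraries (1.77 to 12.8 CPM) and fell by 1.15 (edgeR adjusted p = 0.0204) with overlapping groups, and without WT replicate 2, the library at 12.8 CPM, its edgeR adjusted p was 0.0773 (0.0539 without *Cxcr2-/-* replicate 2). With the replicate number as a block the call of *Vav2* was lost as well (-1.01, edgeR adjusted p = 0.0724). The more abundant *Vav1*, *Vav3*, *Dock2* and *Tiam1* did not pass.

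Genes known to act on the level of gp91phox protein were among those called. *Cybc1*, whose product Eros is needed for gp91phox protein, rose from 90.3 ± 7.002 to 122 ± 15.9 CPM (log2 fold change 0.43, edgeR adjusted p = 0.00514). *Nrros*, which lowers gp91phox protein, fell from 306 ± 20.3 to 243 ± 15.4 CPM (-0.33, edgeR adjusted p = 0.0108), and *Rnf145*, a ubiquitin ligase named with it after the values were seen, went from 116 ± 5.99 to 97.4 ± 9.16 CPM (-0.25, edgeR adjusted p = 0.0428), a call lost without WT replicate 1 or 4 or *Cxcr2-/-* replicate 2, 3 or 4 (edgeR adjusted p from 0.0717 to 0.110). *Pik3c3*, the lipid kinase that makes the phosphoinositide bound by p40phox, rose by 0.37 (16.1 ± 0.780 to 20.7 ± 1.26 CPM, edgeR adjusted p = 0.00741), a call lost with upper-quartile scaling (0.25, edgeR adjusted p = 0.0508) and with total counts (0.28, edgeR adjusted p = 0.0547). The kinases that act on p47phox or its partners (*Prkcd*, *Prkca*, *Prkcb*, *Prkcz*, *Akt1*, *Pak1*, *Pak2*) had log2 fold changes from -0.54 (*Prkcz*) to 0.12 (*Prkcb*), the edgeR adjusted p was lowest for *Akt1* (0.103), and all 7 intervals held 0.

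**Figure D4:**
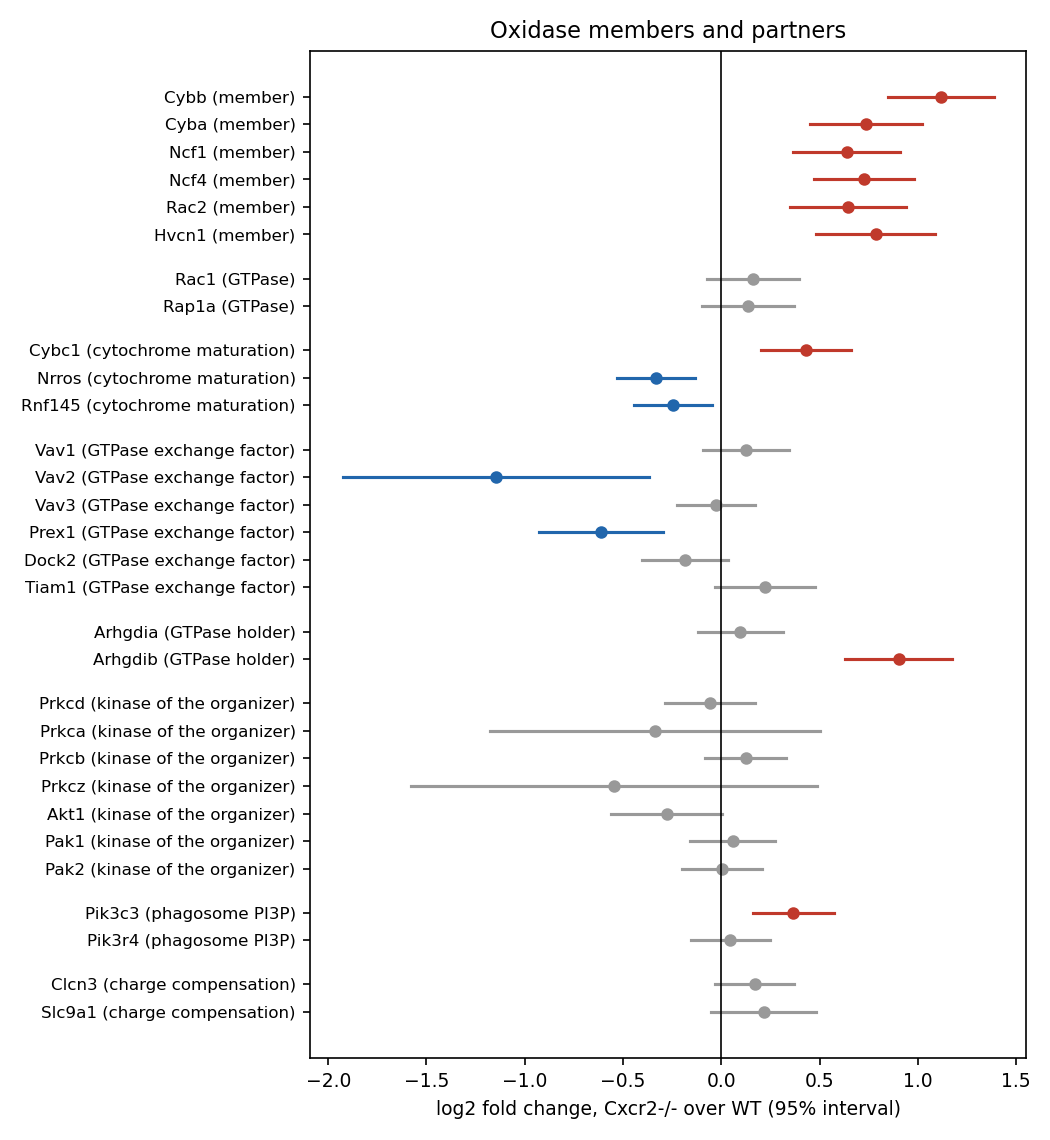
Log2 fold change, *Cxcr2-/-* over WT, of the 6 members and 24 partner genes with the 95% interval from edgeR, grouped by role. Red marks genes higher and blue genes lower at an adjusted p under 0.05, and grey marks those that did not pass: the 6 members sit at 0.64 to 1.12.

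The oxidase draws on NADPH, most of which comes from the oxidative branch of the pentose phosphate pathway. Of 16 genes of NADPH supply, 10 were higher, 3 lower and 3 did not pass, beside 23.7% higher and 21% lower among all genes tested, with a median log2 fold change of 0.63 beside 0.01 for all genes. *G6pdx*, the enzyme that commits glucose to this pathway, was at 529, 414, 458 and 471 CPM in WT and 1622, 1415, 1378 and 1198 CPM in *Cxcr2-/-*. Its groups were far apart and the log2 fold change was 1.58 (SE 0.12, 95% interval 1.32 to 1.85, edgeR adjusted p = 9.83e-07). The next enzymes of the branch, named after their values were seen, were *Pgls*, which rose by 1.26 (edgeR adjusted p = 7.03e-06), and *Pgd*, which rose by 0.41 (1274 ± 182 to 1692 ± 225 CPM, edgeR adjusted p = 0.0250). The call of *Pgd* was lost without any 1 of 4 libraries (WT replicates 2 and 3, *Cxcr2-/-* replicates 1 and 2; adjusted p from 0.0589 to 0.0978).

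In the branch that recycles the sugars *Tkt*, *Rpe* and *Rpia* were higher and *Taldo1* was lower. *Rpe* and *Rpia*, named after their values were seen and given for the main fit only, rose by 0.69 and 0.57 (edgeR adjusted p = 9.71e-05 and 3.16e-04). *Tkt* (transketolase), named after its values were seen, rose from 590 ± 65.2 to 1195 ± 191 CPM (log2 fold change 1.02, edgeR adjusted p = 5.40e-05). *Taldo1* (transaldolase) fell from 989 ± 148 to 662 ± 34.5 CPM (-0.58, edgeR adjusted p = 0.00162) with no overlap between the groups. Of the other sources of NADPH, *Idh1*, the cytosolic isocitrate dehydrogenase, rose from 29.5 ± 4.89 to 74.7 ± 4.78 CPM (1.34, edgeR adjusted p = 2.35e-06). *Me1*, the cytosolic malic enzyme, rose by 1.52 (edgeR adjusted p = 0.0139) from a level of 0.188 CPM on average. *Mthfd1* (folate pathway) and *Nnt* (mitochondrial transhydrogenase) fell by 1.29 and 0.80, both at under 7 CPM in every library.

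**Figure D5:**
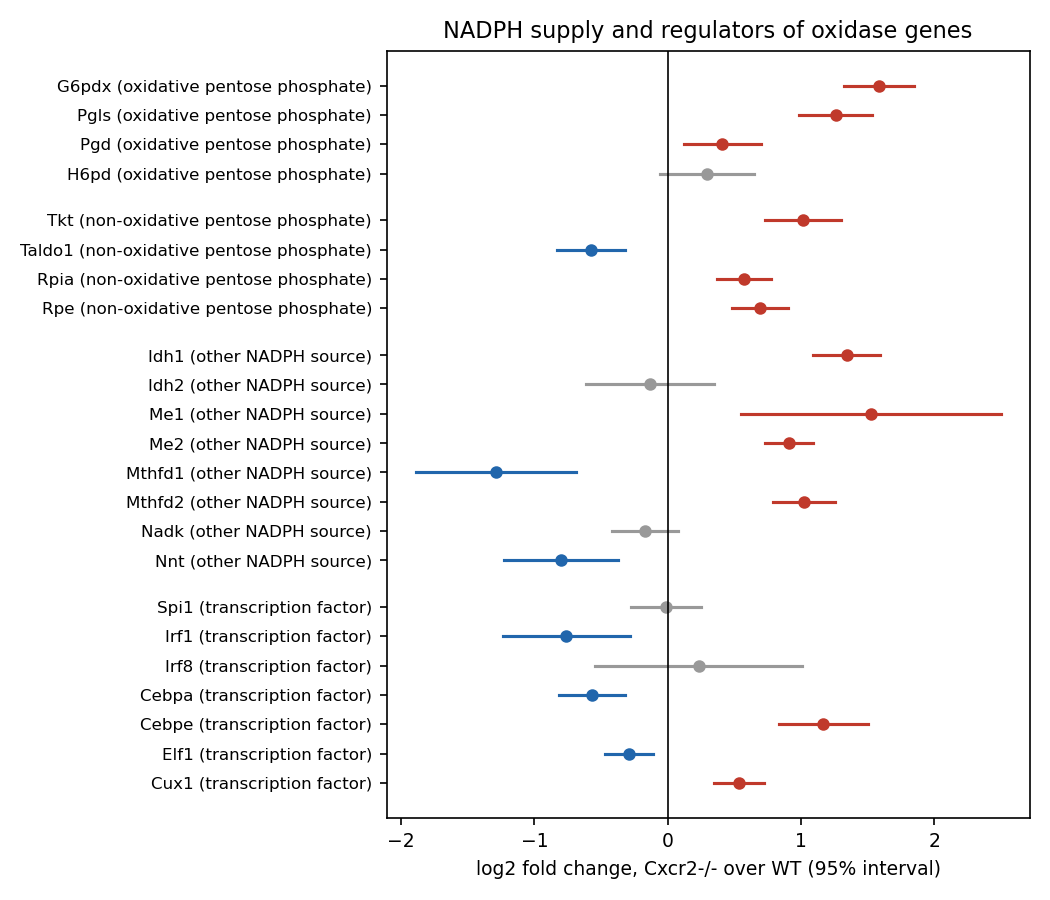
Log2 fold change, *Cxcr2-/-* over WT, of 16 genes of NADPH supply and 7 transcription factors tested, with the 95% interval from edgeR and the same colours for higher, lower and not passed at an adjusted p under 0.05. *G6pdx* and *Pgls* lie well to the right and *Taldo1*, *Mthfd1* and *Nnt* to the left, while the interval of *Spi1* spans 0.

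Transcription factors known to act on oxidase genes were called in both directions. Of 9 such genes *Hoxa9* and *Hoxa10* were at 0 in all libraries, and of the 7 tested 2 were higher and 3 lower, beside 23.7% and 21% of all genes tested, with a median log2 fold change of -0.01. *Spi1*, which encodes the myeloid Ets factor PU.1, was at 804, 646, 665 and 723 CPM in WT and 811, 612, 759 and 631 CPM in *Cxcr2-/-*. The groups overlapped throughout and the log2 difference was -0.01 (95% interval -0.27 to 0.25, edgeR adjusted p = 0.944), with a sign that turned when single libraries were left out. *Cebpe*, a factor of late granulocyte differentiation, rose from 82.7 ± 6.09 to 186 ± 48.4 CPM (log2 fold change 1.17, SE 0.15, edgeR adjusted p = 6.58e-05). Its *Cxcr2-/-* libraries were at 252, 187, 165 and 138.5 CPM in replicates 1 to 4, the order of the members' sum. *Cux1*, which encodes a CCAAT displacement protein, rose by 0.53 (edgeR adjusted p = 3.00e-04). *Irf1*, an interferon-induced factor, fell by 0.76 (edgeR adjusted p = 0.0133, groups overlapping), *Cebpa* by 0.57 (edgeR adjusted p = 0.00140) and *Elf1* by 0.29 (edgeR adjusted p = 0.0138, or 0.0522 without WT replicate 4).

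Promoter sequence from RefSeq (GRCm38.p6) was matched for 3 of the 6 members, and is shown because these genes rose together and PU.1 and other Ets factors bind a GGAA core. Each run is the 250 bases before the RefSeq start of the gene, 5′ to 3′ on the gene's own strand, with GGAA or its reverse complement TTCC in capitals.
Ncf1, chr5:134229626-134229875, minus strand: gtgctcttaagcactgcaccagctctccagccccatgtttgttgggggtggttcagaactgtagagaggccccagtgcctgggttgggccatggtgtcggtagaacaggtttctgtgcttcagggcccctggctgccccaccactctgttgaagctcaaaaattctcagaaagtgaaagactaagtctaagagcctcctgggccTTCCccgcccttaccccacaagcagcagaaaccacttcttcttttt
Cyba, chr8:122432941-122433190, minus strand: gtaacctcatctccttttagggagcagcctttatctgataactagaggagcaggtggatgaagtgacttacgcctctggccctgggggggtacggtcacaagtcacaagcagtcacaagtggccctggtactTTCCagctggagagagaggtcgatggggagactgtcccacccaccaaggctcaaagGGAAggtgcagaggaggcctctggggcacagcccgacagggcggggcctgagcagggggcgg
Cybb, chrX:9469325-9469574, minus strand: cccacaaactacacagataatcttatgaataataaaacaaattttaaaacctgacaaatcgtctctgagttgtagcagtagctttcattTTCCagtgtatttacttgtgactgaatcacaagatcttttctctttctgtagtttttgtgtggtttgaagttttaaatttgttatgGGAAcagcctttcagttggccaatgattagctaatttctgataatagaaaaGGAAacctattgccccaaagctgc

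Searched on both strands, GGAA occurred 1 time before *Ncf1* (46 to 43 bases before the start, as TTCC), 2 times before *Cyba* (118 to 115 bases, as TTCC, and 62 to 59 bases) and 3 times before *Cybb* (161 to 158 bases, as TTCC, then 75 to 72 and 24 to 21 bases). So short a core was present in 93.4% of all 32851 promoters of the same length. The letters CCAAT were found once, before *Cybb* at 56 to 52 bases, and in 33.8% of all promoters. The motifs do not overlap each other in these windows. For *Cybb* the RefSeq start lies inside the longer gene record of the annotation used for coordinates above.

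The genes most like each member over the 8 libraries were looked up among 4102 protein-coding genes of at least 5 in average log2 CPM, by Pearson's r of log2 values, a description that contains the difference between the groups. For *Cybb* these were *Zdhhc3*, *Exoc2* and *Faf1* (r = 0.996 each), and for *Ncf1* *Ikzf1*, *Trappc10* and *Traf7* (r = 0.998, 0.997 and 0.997). The actin-binding *Cotl1* and the myosin light chain *Myl6* were in the first 3 for both *Cyba* (r = 0.996 each) and *Rac2* (r = 0.995 and 0.998), beside *Plp2* for *Cyba* (r = 0.996) and the actin-binding *Pfn1* for *Rac2* (r = 0.996). For *Ncf4* they were the granule peptide gene *Camp* (r = 0.997), *Mapk13* and *Mpnd* (r = 0.994 each), and for *Hvcn1* *Triobp*, *Gtpbp1* and *Rnf25* (r = 0.998, 0.996 and 0.996). No member was among the first 3 of another.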

How the data were processed

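Neutrophils of 4 WT and 4 *Cxcr2-/-* spleens were sequenced after depletion of ribosomal RNA, with a directional kit and paired reads. The authors trimmed the reads (minimum length 120 bases), aligned them to mm10 with STAR, counted them on genes with HTSeq and deposited raw counts per gene without normalization. The strand setting and the gene annotation of the counting are not given in the sources used here. Symbols and coordinates came from GENCODE M21 (GRCm38), which lists 52081 of the 55414 identifiers, while 3333 with 1.43% of the counts were not matched. Nearly all identifiers carry a later version than M21, so exon lengths and overlaps may differ from those counted on. *Nnt* names 2 entries, and the one with counts was used. Rows for read pairs assigned to no feature (26.7 to 41.5%) stayed out of library sizes and tests.

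Counts were tested in R 4.3.3 with edgeR 4.0.16 (quasi-likelihood test, TMM, filterByExpr, Benjamini-Hochberg adjustment over 16778 genes, common biological coefficient of variation 0.202). A gene was called at an adjusted p under 0.05, also with a change of at least 1.5-fold, the thresholds of the study's methods. DESeq2 1.42.0, other scalings and filters, a replicate block and each library left out were alternatives. The steps were tested on simulated data. Ratios used log2 of counts plus 0.5 on each side and an exact permutation test in SciPy 1.17.1. RPKM used the union of exons. Every pair of replicates within a group was further apart than sampling noise (chi-square per gene 24.2 to 97.6).

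The members and lists were chosen with earlier results of these data known. Named were the members, the 3 largest called rises and falls of each list of partners, supply and regulators, *Rac1* and *Spi1* whatever their value, the 3 genes most like each member, and marker genes. A gene set down for the partner list is not reported here.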

Additional observations from a re-analysis of the deposited data

How the results depend on the processing

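At an adjusted p under 0.05 alone, all 6 members stayed higher under 15 of 16 alternatives (DESeq2, other scalings and filters, the replicate block and each library left out). Under the 16th, the no-feature share of read pairs as a covariate (added after the data were seen), 1 was called. With 1.5-fold as well, 4 to 6 passed under those 15 and 1 with the covariate. That covariate left log2 fold changes of 0.37 for *Cyba* (adjusted p = 0.198, edgeR for these values), 0.37 for *Ncf1* (0.224), 0.53 for *Ncf4* (0.0837), 0.35 for *Rac2* (0.277) and 0.39 for *Hvcn1* (0.231). With it 1597 genes were higher and 1486 lower (1502 and 1341 with 1.5-fold), against 3969 and 3526 (2628 and 2628). Of the partners 1 was then higher and 2 lower, of NADPH supply 7 higher and 1 lower, and of the regulators 1 higher and 2 lower. *H6pd* and *Rac1*, neither called, changed sign to -0.050 and -0.094. The cause was not tested, and the fit has 1 residual degree of freedom fewer.

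With a library left out, partners called lower ran from 2 (without *Cxcr2-/-* replicate 2) to 5. *Spi1* ran from -0.082 to 0.056 and *Gtf2ird2* from -0.026 to 0.21, neither called. Left-out libraries moved *Cybb* between 1.04 and 1.16 and *Rac2* between 0.53 and 0.71. Upper-quartile scaling moved the median of all genes to -0.11 and the split to 3076 higher and 4391 lower, with all 6 members still past the p threshold (*Ncf1* 0.52). With the longest transcript as length 4 of 6 members held their WT rank. Equal replicate numbers are different mice, and their deviations did not pair (correlations 0.158, -0.01, 0.407 and -0.224). With the number as a replicate block all 6 members stayed called (*Cybb* 1.11), 3719 genes were higher and 3349 lower, and of the named genes *Vav2* lost its call. Leaving out a library turned none of the 5 ratios, which all share *Cybb* as denominator. With 3 against 4 libraries an exact permutation p under 0.05 cannot be reached.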
